A study of Homo sapiens with 8 samples.

Results

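The stretch of chromosome 1 described here comprises every 150 bp window of the deposited count table that starts between positions 143000001 and 165000000 of the hg19 build. These 22 segments of 1 Mb carry the working name 1q21 to 1q23. Band limits were not checked, and the stretch is defined by coordinates alone. It held 3952 of the 256141 windows of the table. Neighbouring windows at most 100 bp apart were joined into regions, and 512 of the 35741 regions lay in the stretch. The first window inside starts at 144006651 and the last at 164756751. The nearest windows outside start at 121261401 and 165132201.

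Toward its centromeric side the long arm of chromosome 1 holds large duplicated blocks that carry gene families such as NBPF. Farther out lie a histone gene cluster and the epidermal differentiation complex, which encodes involucrin, loricrin, filaggrin and many S100 proteins. These are proteins of the outer skin layers and of inflammation. AIRE, the autoimmune regulator, drives expression of such tissue-restricted genes in the thymus, and involucrin and S100A8 are among the genes commonly followed in AIRE-expressing kidney cell lines. Open chromatin marks mostly active promoters and enhancers. The windows of the table carry no gene names and neither annotation nor sequence of that build was used, so regions are identified by position and no sequence is shown.

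FAIRE-seq recovers DNA that is poorly bound by nucleosomes after formaldehyde fixation. It was applied to AIRE-Tet cells, a Tet-On Advanced HEK293 line (human embryonic kidney) in which doxycycline switches on human AIRE. The 4 groups, with 2 biological replicates each, were cells given 1.5 µM doxycycline and, after 24 h of AIRE induction, 2 µM etoposide for 24 h (DoxEtop), cells given doxycycline alone (Dox), uninduced cells with the same etoposide treatment (Etop), and untreated cells (Control). All groups carried the inducible transgene, and doxycycline without it was not analysed here, so the drug and AIRE cannot be told apart, and the files hold no measure of AIRE itself. Each library is a bulk population, so fewer cells open at a site and less opening per cell cannot be told apart. Etoposide traps topoisomerase II on DNA and leaves breaks. "Induced" below means the 4 DoxEtop and Dox libraries, and "uninduced" the 4 Etop and Control libraries.

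Column totals of the table ran from 4489871 to 5305079 counts in the induced libraries and from 4568818 to 8275911 in the uninduced ones. They sum overlapping windows and are not library depths. Summed over all libraries, no window in the stretch had under 115 counts, and the median sum was 170, against 160 in the whole table, so the count of a window in 1 library is small and its counting error large. Among uninduced libraries, Control replicate 1 stood closest to the induced ones. Over the log2 levels of the windows in the stretch, which overlap and share their library, it correlated at 0.539 with Dox replicate 1 and at 0.477 with Control replicate 2, whereas Control replicate 2 correlated at 0.169 with Dox replicate 1.

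The stretch as a whole took a smaller share of the counts in AIRE-induced cells. It held 1.567% and 1.575% of all window counts in DoxEtop and 1.52% and 1.502% in Dox, against 1.742% and 1.725% in Etop and 1.662% and 1.744% in Control. All 4 induced libraries lay below all 4 uninduced ones, and Control replicate 1 was the lowest uninduced library. The mean share was 1.54 ± 0.0357% with induction and 1.72 ± 0.0384% without (SD, n = 4 each), a ratio of 0.897. The rest of chromosome 1 held 10.99 ± 0.0627% with induction and 11.05 ± 0.113% without, a ratio of 0.994, and there the 2 sets of libraries overlapped. No test was made on these shares, which are a description of the stretch. Leaving out any 1 library gave ratios of 0.887 to 0.905 for the stretch.

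**Figure D1:**
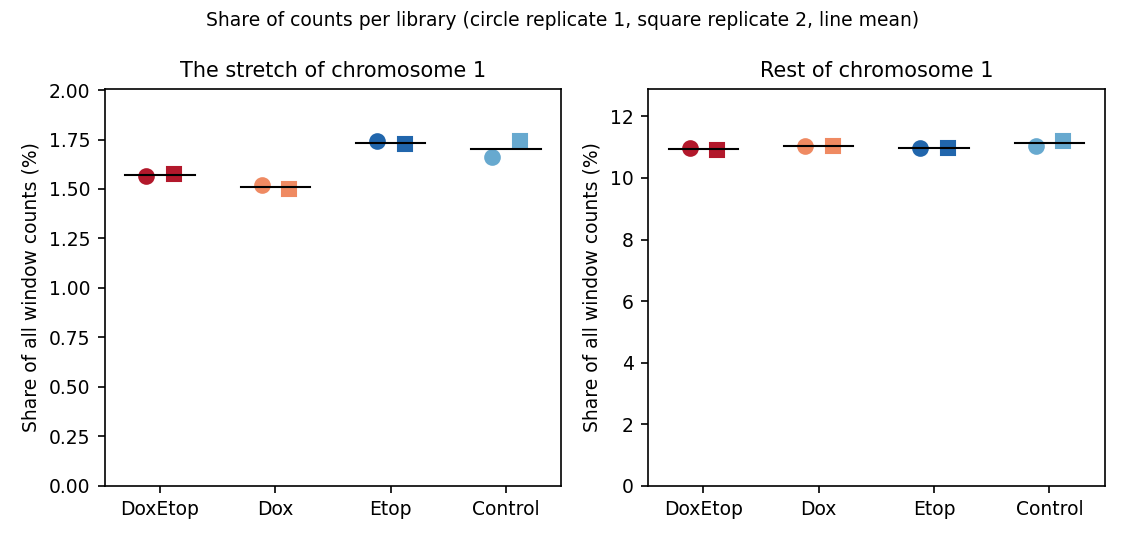
Share of all window counts (%, y axis from 0) that fell in the stretch (left) and in the rest of chromosome 1 (right), for each library by group; circles are replicate 1, squares replicate 2, and lines group means. In the stretch the DoxEtop and Dox libraries lie at 1.502% to 1.575%, below the Etop and Control libraries at 1.662% to 1.744%; in the rest of the chromosome they overlap.

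Single windows showed the same direction. With etoposide held as a second factor, 403 of the 3952 windows were lower with AIRE induction and 23 were higher (edgeR quasi-likelihood F test on the whole table, Benjamini-Hochberg adjusted p under 0.05). That is 10.2% of the stretch called lower, where the background over the whole table was 6.17%, and 0.582% called higher, where the background was 1.27%. The median log2 fold change was -0.13 in the stretch, 0.04 in the whole table and 0.02 in the rest of chromosome 1. Among called windows the sizes were like those of the table, with a median log2 fold change of -1.48 in the stretch and -1.49 in the table for lower windows, and 1.14 and 1.17 for higher ones. Windows called lower had a median level of 1.635 CPM in induced libraries and 5.15 CPM in uninduced ones, where CPM (the usual depth-scaled count) uses the TMM-scaled column total of the table. Every induced library was below every uninduced one at 492 windows, 12.4% of the stretch against a background of 7.49%, and above every one at 124 windows, 3.14% against 4.98%.

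The count of 403 lower windows depended on single libraries and on the tool. It was 183 without Control replicate 2, 216 without DoxEtop replicate 1 and 267 without Dox replicate 2, and 14 with limma-voom. Without each of these libraries, a larger share of the stretch than of the table was lower. The shares were 4.63% against 2.59%, 5.47% against 3.20% and 6.76% against 4.10%. With limma-voom they were 0.354% and 0.244%, and 14 windows that can overlap are too few to compare these.

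Counted as merged regions, 115 of 512 were lower and 5 were higher (Simes p per region, Benjamini-Hochberg adjusted over all regions of the table). The lower regions made up 22.5% of the stretch, beside 12.9% of all regions, and the higher ones 0.977% beside 1.42%. In 86 of the 115 lower regions every window had a log2 fold change below 0. Windows of a region overlap, and this count was not taken over the whole table. All windows were called lower in 36 of the 512 regions, beside 1386 of all 35741. At low levels 26 windows of the stretch had 0 counts in at least 1 induced library and 1 window in at least 1 uninduced library, beside 887 and 137 windows of the whole table. The column totals of the induced libraries are mostly the smaller ones. The strongest window of each lower region ranged from -3.86 to -0.95 in log2 fold change, with a median of -1.72. Lower regions had a median width of 400 bp, as did the other 397 regions.

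Losses were seen in regions of every width. In the stretch 20.6% of windows in regions of up to 300 bp were lower, 13.2% in regions over 300 and up to 500 bp, 7.57% in regions over 500 and up to 1000 bp and 7.19% in wider ones. The table had 9.93%, 7.27%, 4.92% and 4.97% in these classes. The mix of widths was alike, with 37.7% of the regions of the stretch and 42.5% of all regions in the narrowest class. Restricted to regions over 500 bp, the stretch's share of the counts of all such regions did not overlap between the sets of libraries either, at 1.581% to 1.666% in induced and 1.735% to 1.819% in uninduced ones.

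Along the stretch the losses were unevenly placed. Segments of 1 Mb held between 0 and 725 windows. The segment from 150 to 151 Mb had 46 of 286 windows lower and 0 higher, and its summed level in induced libraries was 990 to 1117 CPM, against 1239 to 1475 CPM in uninduced ones. Next to it, from 151 to 152 Mb, 49 of 339 windows were lower and 3 higher. From 161 to 162 Mb, 46 of 285 were lower and 0 higher, with 1006 to 1078 CPM in induced and 1101 to 1314 CPM in uninduced libraries. The segments with most windows, from 155 to 156 and from 156 to 157 Mb, had 46 of 663 and 70 of 725 lower. Their summed levels in induced libraries stood at 0.923 and 0.885 of the uninduced mean, and only the second was free of overlap between the sets of libraries.

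At the centromeric end, where duplicated blocks lie and reads can match more than one copy, the 582 windows below 150 Mb had a median log2 fold change of -0.28, and 44 of the 314 from 145 to 146 Mb were lower. The share of counts there was 0.236 ± 0.0053% with induction and 0.278 ± 0.0121% without (SD, n = 4 each), a ratio of 0.849. How reads matching several places were treated is not given in the sources used here. The part from 150 Mb on, taken alone, gave 332 lower and 22 higher windows of 3370 and a ratio of 0.906, with no overlap between induced (1.27% to 1.34%) and uninduced libraries (1.39% to 1.48%).

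Of the 9 segments with at least 100 windows, 6 had every induced library below every uninduced one in summed level and 0 had the opposite. In the whole data set 12.9% of 676 such segments were lower in that sense and 9.91% were higher. The 3 segments of this kind with overlap ran from 153 to 154, from 155 to 156 and from 160 to 161 Mb. Some sparse segments pointed the other way in level without separating the libraries. The segment from 158 to 159 Mb, with 24 windows, stood at 1.16 of the uninduced mean. That from 162 to 163 Mb, with 55, stood at 1.06, and that from 152 to 153 Mb, with 59, at 1.01. The segment from 160 to 161 Mb held 5 higher and 3 lower windows.

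**Figure D2:**
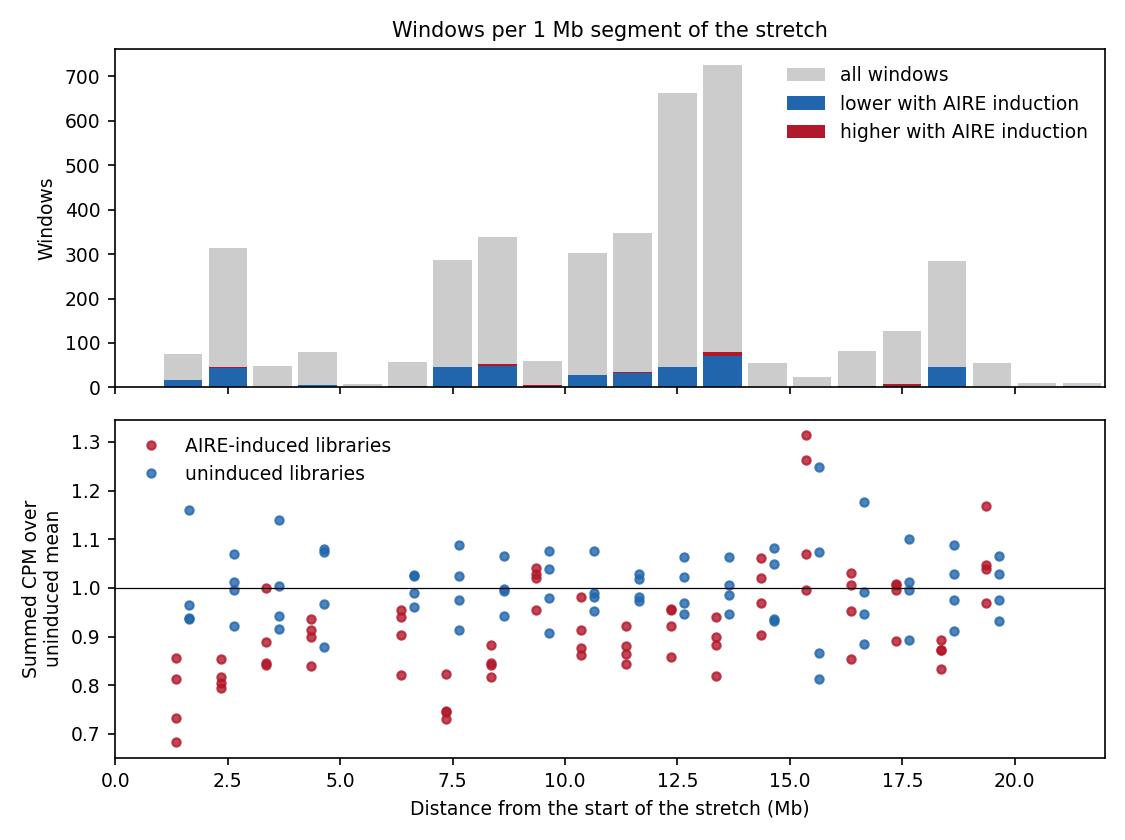
Top, number of windows per 1 Mb segment (y axis) by distance from the start of the stretch (x axis, Mb), with windows lower and higher with AIRE induction in colour. Bottom, summed CPM of each library divided by the uninduced mean of that segment, for segments of at least 20 windows; in 6 of the 9 segments with at least 100 windows all induced libraries lie below all uninduced ones.

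The deepest named losses left few fragments in any induced library. No window of the table had a summed count under 111, so these windows are in it through their uninduced counts. In the stretch 53 windows had 20 or fewer counts summed over the induced libraries, and 0 over the uninduced ones. An equally deep gain, with its counts in libraries of mostly smaller column totals, could enter the table less easily. In the region from 151042751 to 151043150, whose 6 windows were all lower, the window at 151042951 showed 2 and 6 counts in DoxEtop and 6 and 0 in Dox, against 59 and 31 in Etop and 37 and 46 in Control. No induced library came near an uninduced one. Its level was 0.676 ± 0.586 CPM with induction and 6.65 ± 1.65 CPM without (SD, n = 4 each), and the log2 fold change was -3.23 (SE 0.443, edgeR adjusted p = 1.25e-06). With loess offsets along the mean log count its log2 fold change was -1.40 and it was not called (edgeR adjusted p = 0.0551). With those along the average log2 CPM, a setting chosen after seeing the data, it was -3.24 (edgeR adjusted p = 1.27e-06).

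All 8 windows were lower in the region from 161195501 to 161196000. Its window at 161195701 had 4 and 8 counts in DoxEtop and 1 and 2 in Dox, against 57 and 28 in Etop and 47 and 41 in Control. The induced libraries averaged 0.74 ± 0.606 CPM and the uninduced ones, which lay close together, 6.53 ± 1.125 CPM (SD, n = 4 each). The log2 fold change was -3.16 (SE 0.423, edgeR adjusted p = 7.73e-07). It was -2.002 with loess offsets along the mean log count (edgeR adjusted p = 0.00215) and -3.17 with those along the average log2 CPM. At 161162451, in a region of 250 bp, the counts were 0 and 7 in DoxEtop and 0 and 1 in Dox, against 58 and 19 in Etop and 19 and 57 in Control, the lowest log2 fold change of the stretch (-3.86). That window was named for Dox vs Control and lies below the median level of the table.

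Uninduced libraries differed more from each other at the window starting at 156859901 (region 156859901 to 156860200). It had 8 and 4 counts in DoxEtop and 2 and 2 in Dox, against 78 and 10 in Etop and 31 and 54 in Control. Etop replicate 2 was the lowest uninduced library and was above every induced one in CPM, which the rule for naming required. The means were 0.776 ± 0.51 CPM with induction and 6.30 ± 4.11 CPM without, a log2 fold change of -3.03 (SE 0.459, edgeR adjusted p = 6.67e-06). This was -1.51 with loess offsets along the mean log count (edgeR adjusted p = 0.0375) and -3.03 with those along the average log2 CPM. A like spread was seen at 151707601 (region 151707551 to 151707850), with 8 and 8 counts in DoxEtop and 4 and 3 in Dox, against 66 and 17 in Etop and 24 and 51 in Control, and a log2 fold change of -2.41 (edgeR adjusted p = 5.32e-05).

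The region with most lower windows was a wide one, from 154946151 to 154947550, where 14 of 20 windows were lower. At 154946901 it had 2 and 9 counts in DoxEtop and 11 and 9 in Dox, against 42 and 20 in Etop and 57 and 82 in Control. The level was 1.56 ± 0.801 CPM with induction and 7.39 ± 3.42 CPM without, a log2 fold change of -2.24 (SE 0.358, edgeR adjusted p = 1.71e-05). The loss was not even along the region. Its windows at 154947001 to 154947151 kept 4.27 to 4.63 CPM in induced libraries, against 5.25 to 7.18 CPM in uninduced ones, and were not called (edgeR adjusted p = 0.133 to 0.611).

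The other 5 named regions had losses of like size to one another. Their windows at 153940201, 150232451, 156195301, 155946501 and 151138401 had log2 fold changes of -2.16, -2.13, -2.07, -2.05 and -2.01. Over these windows induced libraries had 3 to 14 counts and uninduced ones 24 to 72. At 151138401, in the region from 151138251 to 151138650, the counts were 7 and 14 in DoxEtop and 13 and 9 in Dox, against 72 and 38 in Etop and 51 and 66 in Control. Its level was 2.13 ± 0.64 CPM with induction and 8.67 ± 1.90 CPM without (SD, n = 4 each; edgeR adjusted p = 9.85e-06). It opens a run of 3 neighbouring regions called lower that spans 24.6 kb. Runs of 3 also lay from 150601601 to 150849650 and from 156695601 to 156711350, and no run was longer. Runs were not counted over the whole table, so they show no clustering particular to the stretch. All 10 named losses remained called with DESeq2 and with each library left out in turn, and 0 of them with limma-voom (adjusted p = 0.0704 to 0.405).

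**Figure D3:**
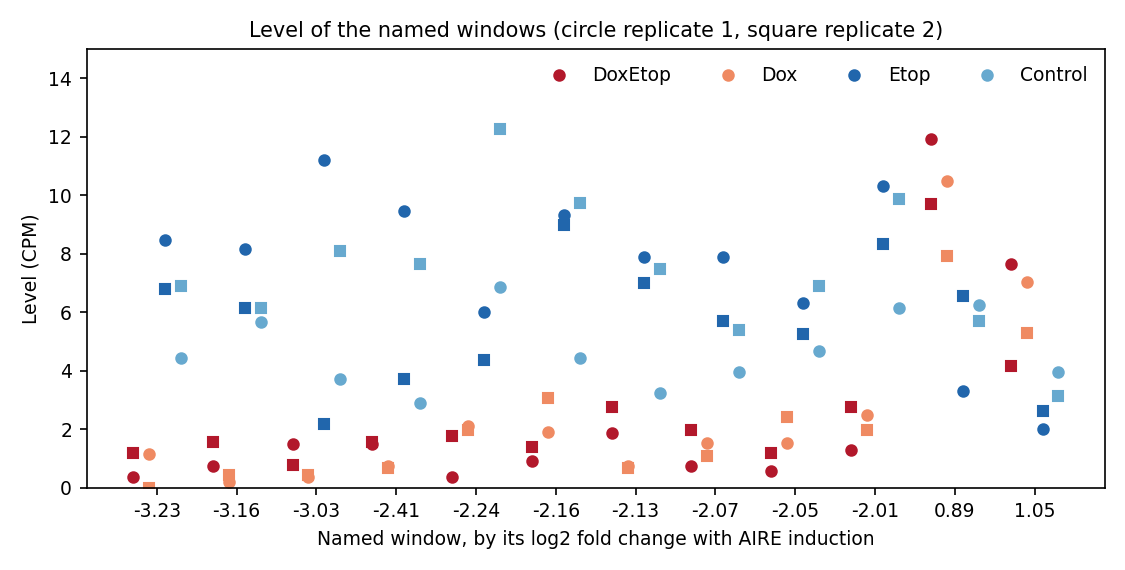
Level in CPM (y axis, from 0) of the 12 windows named for AIRE induction, ordered by log2 fold change (x axis labels), in each library by group; circles are replicate 1 and squares replicate 2. The 10 windows on the left have every DoxEtop and Dox library below every Etop and Control library, and the 2 on the right have the opposite order. The rule for naming these windows required this separation.

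Gains were few. Of the 5 regions called higher, 2 had a strongest window above the median level of the table. The window at 156629951 (region 156629701 to 156630250) had 64 and 49 counts in DoxEtop and 55 and 36 in Dox, against 23 and 30 in Etop and 52 and 38 in Control. The raw counts overlap, but the levels, scaled to the column totals, did not, at 10.0 ± 1.67 CPM with induction and 5.46 ± 1.48 CPM without. The log2 fold change was 0.89 (SE 0.252, edgeR adjusted p = 0.0182). At 160370151 (region 160370001 to 160370350) the counts were 41 and 21 in DoxEtop and 37 and 24 in Dox, against 14 and 12 in Etop and 33 and 21 in Control, with a log2 fold change of 1.05 (SE 0.319, edgeR adjusted p = 0.0295). DoxEtop replicate 2 was only just above Control replicate 1 there, at 4.15 and 3.97 CPM. Both calls were lost with limma-voom (adjusted p = 0.0557 and 0.108), and without DoxEtop replicate 1, Dox replicate 1, Etop replicate 1 or Control replicate 2 (edgeR adjusted p = 0.0527 to 0.215).

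The other 3 higher regions, named after their values were seen, had low levels. The window at 152161801 had 22 and 19 counts in DoxEtop and 20 and 22 in Dox, against 3 and 10 in Etop and 4 and 15 in Control, a log2 fold change of 1.70 (edgeR adjusted p = 0.00967). No other window of the stretch called higher over all 8 libraries had a larger log2 fold change. The windows at 156593801 and 160370601 had log2 fold changes of 1.545 and 1.41 (edgeR adjusted p = 0.014 and 0.0257). The regions starting at 160370001 and 160370501 are neighbours.

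In the 5 regions that hold the highest single-window levels, the highest window of each was not called. The highest of all was at 145039901 (region 145039351 to 145040250), with 112 and 98 counts in DoxEtop and 96 and 82 in Dox, against 152 and 71 in Etop and 127 and 93 in Control. Its level was 19.2 ± 1.28 CPM with induction and 16.65 ± 3.52 CPM without, and the groups overlapped (log2 fold change 0.20, SE 0.186, edgeR adjusted p = 0.537). On the shoulder of the same region 5 of its 16 windows were lower, and the window at 145039601 had 6.17 ± 1.57 CPM with induction and 12.2 ± 2.09 CPM without (log2 fold change -0.99, edgeR adjusted p = 0.00288). A second strong region, from 144931051 to 144932750, held a crest at 144932051 with 16.1 ± 1.65 CPM and 15.2 ± 2.01 CPM in the same order, and 8 of its 28 windows were lower.

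The highest windows of the other 3 of these regions, at 145075851, 155057301 and 160232251, had log2 fold changes of 0.36, 0.07 and 0.50 and were not called (edgeR adjusted p = 0.151 to 0.886). At 160232251 every induced library was above every uninduced one, at 10.8 to 15.8 CPM against 7.67 to 10.5 CPM. All 5 log2 fold changes were above 0. Of the 5 widest regions, between 2050 and 2600 bp, the highest windows had log2 fold changes of -0.56 to 0.15 and none was called (edgeR adjusted p = 0.137 to 0.886). The widest of all, from 155292851 to 155295450, had 1 of 48 windows lower. Over the 313 regions of at least 5 windows, the median log2 fold change was -0.33 at the 2 end windows and -0.10 at the window with most counts, and the ends were lower than the crest in 66.8% of them. The table had 65.5%, so this gradient was close to that of all regions.

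**Figure D4:**
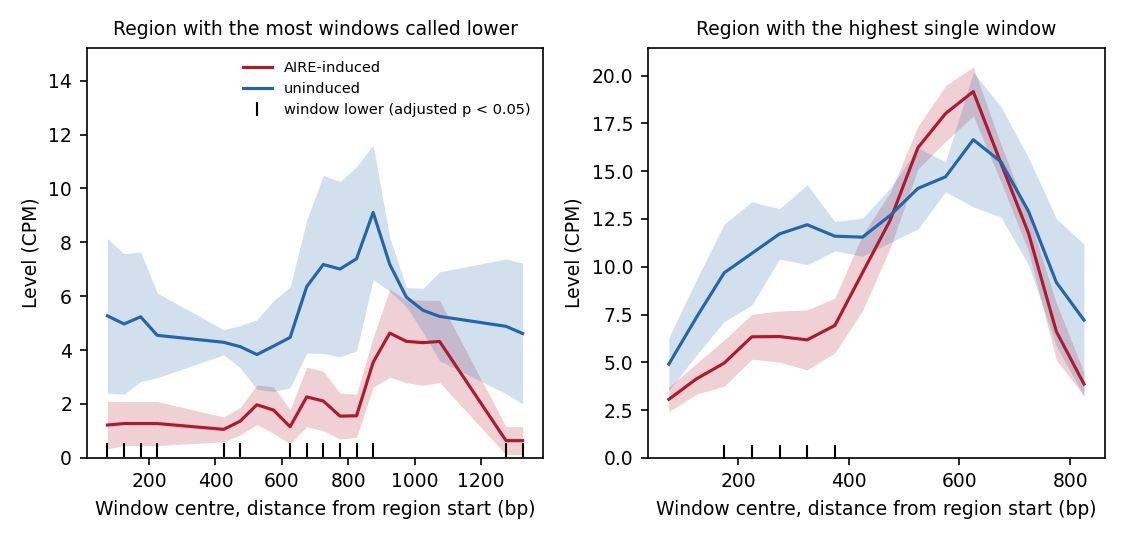
Level in CPM (y axis, from 0) of the windows of 2 regions by distance from the region's start (x axis, bp); lines are means and bands SD of the 4 AIRE-induced and the 4 uninduced libraries, lines join windows across positions the table does not hold, and ticks mark windows with an adjusted p under 0.05. On the left 14 of 20 windows were lower with induction; on the right the crest, at 19.2 CPM in induced and 16.65 CPM in uninduced libraries, overlaps while 5 windows of the shoulder were lower.

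Without etoposide, AIRE induction (Dox vs Control) lowered 72 windows of the stretch and raised 0 (edgeR). The lower windows were 1.82% of the stretch, beside a background of 0.848% in the table, and 0.0156% of the table was higher. As merged regions, 19 were lower and 0 higher (3.71% and 0%, beside 1.84% and 0.0168% of all regions). The deepest named window was that at 161162451, where Dox had 0 and 1 counts and Control 19 and 57. Its pooled level was 49.6-fold lower, with a 95% interval of 8.64 to 1985 that covers counting error only (edgeR adjusted p = 0.00306). At 156695901 (region 156695601 to 156696050) Dox had 0 and 2 counts and Control 20 and 42, 20.2-fold lower (95% counting interval 5.37 to 171, edgeR adjusted p = 0.00595). The window at 161195701, described above, had a log2 fold change of -4.17 (SE 0.694, edgeR adjusted p = 0.00103) and was the 1 of these 3 that DESeq2 also called.

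This count depended on the tool and on single libraries. DESeq2 called 1 window and limma-voom 0, with 438 and 253 windows at an unadjusted p under 0.05, beside 579 with edgeR. It was 0 without Control replicate 2, Dox replicate 1 or Dox replicate 2, fits in which the lone library left in the group is taken to vary like the other groups. It was 129 without Control replicate 1 and 109 without Etop replicate 2. With loess offsets along the mean log count it was 27, and with those along the average log2 CPM 72. Over the whole table the counts without these libraries moved in the same direction, so that movement is not particular to the stretch. In the table DESeq2 called 159 windows lower (0.0621%) and limma-voom 5 (0.00195%). The larger share of the stretch seen with edgeR was not seen with these tools, whose calls there are too few to compare.

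In cells given etoposide, AIRE induction (DoxEtop vs Etop) lowered 155 windows and raised 14 (edgeR), 3.92% and 0.354% of the stretch beside backgrounds of 2.43% and 0.45%. As merged regions, 48 were lower and 3 higher (9.38% and 0.586%, beside 5.36% and 0.613% of all regions). The deepest named window was at 153643351, in a region of 250 bp, with 3 and 0 counts in DoxEtop against 35 and 26 in Etop. Its pooled level was 18.4-fold lower (95% counting interval 5.996 to 91.5, edgeR adjusted p = 0.00205). Dox had 6 and 4 counts there and Control 18 and 61. Windows at 161195801 and 150669701 had 3 and 2 and 0 and 4 counts in DoxEtop, against 51 and 26 and 39 and 22 in Etop, with log2 fold changes of -3.71 and -3.69 (edgeR adjusted p = 0.000923 and 0.00466).

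The highest named window with etoposide was at 160370501 (region 160370501 to 160371150), with 31 and 17 counts in DoxEtop against 3 and 4 in Etop. Its level was 4.57 ± 1.71 CPM in DoxEtop and 0.654 ± 0.315 CPM in Etop (SD, n = 2 each), and the log2 fold change was 2.85 (SE 0.665, edgeR adjusted p = 0.00985). Dox had 14 and 15 counts and Control 20 and 11, and the log2 fold change without etoposide was 0.54. Windows at 155051451 and 154934401 were at 2.77 and 2.18 (edgeR adjusted p = 0.00968 and 0.0412). DESeq2 did not call 154934401 (adjusted p = 0.105), and limma-voom called none of the 3 (adjusted p = 0.556 to 0.585). In total 169 windows were called here. This count moved with single libraries and with the tool, in the same direction over the whole table, so the movement is not particular to the stretch. DESeq2 called 0.805% of the table lower and 0.0753% higher, and limma-voom 0.00547% and 0.00508%. Leaving out DoxEtop replicate 1 gave 0, Etop replicate 1 gave 41 and Etop replicate 2 gave 316, while DESeq2 called 66 and limma-voom 0.

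The log2 fold changes of AIRE induction without and with etoposide rest on separate libraries. The calls do not, because their spread was estimated over all 8 libraries together. Of the windows called lower, 43 were shared, which is 59.7% of the 72 and 27.7% of the 155. Of the 155 windows lower with etoposide, 152 had a log2 fold change below 0 without it, and of the 14 higher windows 12 had one above 0. These counts of called windows were not taken over the whole table, so they show nothing particular to the stretch. Over the 3952 windows, which overlap, the log2 fold changes of both comparisons correlated at Pearson r = 0.596 and Spearman rho = 0.552, with the same sign at 70.0% of windows. In the table Pearson r was 0.547 and the sign was the same at 67.25%. The interaction, which tests whether the change with induction differs with etoposide, called 0 windows of the stretch with edgeR, DESeq2 or limma-voom, with 187, 114 and 156 at an unadjusted p under 0.05. The edgeR number is 4.73% of the stretch, beside 4.14% of the table. The windows of smallest interaction p were at 155904001 and 161102451, with log2 differences of 2.74 and 2.55 (edgeR quasi-likelihood test, both with an adjusted p of 1).

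**Figure D5:**
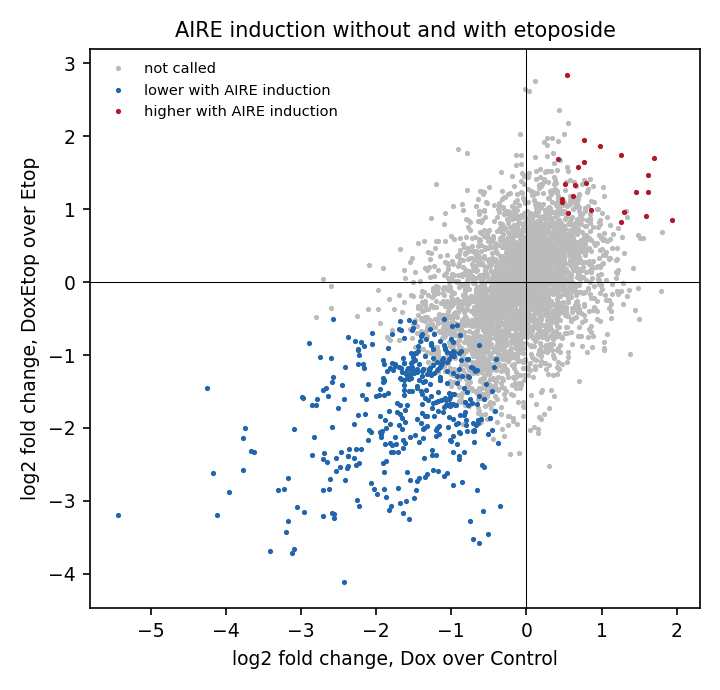
Log2 fold change of each of the 3952 windows for DoxEtop over Etop (y axis) and Dox over Control (x axis); colours mark windows called lower or higher over all 8 libraries, a call that uses these same data. The points lie along the diagonal (Pearson r = 0.596), with most coloured points in the lower left.

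Cells given both treatments (DoxEtop vs Control) had 107 lower and 5 higher windows (edgeR), 2.71% and 0.127% of the stretch beside backgrounds of 1.48% and 0.154%. As merged regions, 29 were lower and 0 higher (5.66% and 0%, beside 3.16% and 0.168% of all regions). This comparison shares libraries with both described above. Its counts with other tools and without single libraries, given below, moved in the same direction over the whole table. The lowest named windows were at 153643351, 150669701 and 161171851, with log2 fold changes of -4.18, -3.80 and -3.38 (edgeR adjusted p = 0.00316 to 0.00718). At 161171851 (region 161171751 to 161172400) DoxEtop had 5 and 0 counts, against 26 and 49 in Control. The highest was at 155224701, inside a region of 1650 bp from 155224101 to 155225750, with 38 and 19 counts in DoxEtop against 10 and 5 in Control (log2 fold change 2.43, SE 0.573, edgeR adjusted p = 0.0161). Dox had 15 and 19 counts and Etop 29 and 11 there, so DoxEtop replicate 1 was the highest library and Control the lowest group. At 153539151 (region 153538851 to 153539450) the counts were 63 and 50 in DoxEtop and 25 and 19 in Dox, against 60 and 27 in Etop and 32 and 29 in Control (DoxEtop over Control log2 fold change 1.40, edgeR adjusted p = 0.0287). The count of 112 windows was 0 without Control replicate 2 or DoxEtop replicate 1, 21 with DESeq2 and 0 with limma-voom.

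The named windows of these pairwise comparisons rest on few counts. With loess offsets along the mean log count, 2 of the 3 named losses in Dox vs Control were not called. The same held for all 3 named losses in DoxEtop vs Etop and in DoxEtop vs Control (edgeR adjusted p = 0.316 to 0.878). DESeq2 did not call 2, 1 and 1 of these losses. The log2 fold changes of the named losses under the loess offsets were -3.19 to -1.36 in Dox vs Control, with 161162451 at -1.36. They were -1.29 to -0.35 in DoxEtop vs Etop and -1.63 to -0.66 in DoxEtop vs Control. All 3 named gains of DoxEtop vs Etop and of DoxEtop vs Control stayed called under these offsets, at 2.52 to 4.23 and 1.35 to 3.08. With loess offsets along the average log2 CPM, chosen after seeing the data, every named loss of the 3 comparisons stayed called. Their log2 fold changes were -5.40 to -4.18 in Dox vs Control. They were -4.05 to -3.61 in DoxEtop vs Etop and -4.12 to -3.32 in DoxEtop vs Control. Of the named gains of DoxEtop vs Control, 1 of 3 was not called there (edgeR adjusted p = 0.054). DESeq2 also called 0 of the 3 named gains of DoxEtop vs Control (adjusted p = 0.0544 to 0.137).

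Etoposide itself moved no window past the threshold. Its main effect over all 8 libraries called 0 windows of the stretch with edgeR, DESeq2 and limma-voom, and 5.92% of windows had an unadjusted edgeR p under 0.05, beside 5.83% in the table. The median log2 fold change was 0.05. The window at 153539151 had the smallest p, at 9.04 ± 2.45 CPM with etoposide and 4.29 ± 0.379 CPM without (SD, n = 4 each; log2 fold change 1.05, edgeR adjusted p = 0.618). Next was 160001351 (region 160001151 to 160002000), at 4.83 ± 1.67 CPM and 1.51 ± 0.749 CPM in the same order (log2 fold change 1.63, edgeR adjusted p = 0.618). At both, every library with etoposide was above every library without it, and neither passed.

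Split by AIRE state, etoposide again gave 0 calls with edgeR, DESeq2 and limma-voom. In uninduced cells (Etop vs Control) 222 windows (5.62%, beside 5.57% of the table) had an unadjusted edgeR p under 0.05, and 5 windows were called lower without Etop replicate 2. The smallest was at 155293601, in the widest region, with 107 and 43 counts in Etop against 47 and 26 in Control (log2 fold change 1.38, edgeR adjusted p = 0.863), followed by 154971601 with 13 and 14 counts in Etop against 51 and 58 in Control (log2 fold change -1.62, edgeR adjusted p = 0.863). In induced cells (DoxEtop vs Dox) 204 windows had such a p (5.16%, beside 4.26% of the table). The smallest were at 150338101 and 150240751, with 17 and 23 and 16 and 22 counts in DoxEtop against 2 and 3 and 3 and 2 in Dox (log2 fold changes 2.86 and 2.79, edgeR adjusted p = 0.9999 each). These 2 windows had 15 to 35 counts in Control, so Dox was the low group.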

How the data were processed

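FAIRE-seq counts of the 8 libraries were analysed. The authors deposited whole-number read counts of 150 bp windows on hg19, not normalized. Per the submitters' processing notes, Trim Galore, Bowtie2 and Bowtie were used, and the labels describe 100 bp paired-end reads with repeat sequencing of each library. How windows were chosen and counted, and how duplicates, multiply matching reads and input DNA were handled, is not given in the sources used here. The smallest summed count was 111. Windows overlap at steps of 50 bp, so neighbours share reads.

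All windows of the table were fitted with edgeR 4.0.16 in R 4.3.3 (TMM scaling, quasi-likelihood F test, Benjamini-Hochberg adjustment over 256141 windows, threshold 0.05). Main effects came from a model with AIRE induction and etoposide as additive terms, and pairwise contrasts and the interaction from a model of the 4 group means. No window was removed by edgeR's filter on low counts. Windows at most 100 bp apart were joined into regions, and Simes p-values were adjusted over all regions. CPM is the deposited count over the TMM-scaled column total. Pooled folds have exact 95% intervals that cover counting error only. The fits were tested on simulated data.

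Named windows were, 1 per region by smallest p, up to 10 in each direction for the AIRE main effect, above the median level of the table and with no overlap between induced and uninduced libraries. They were up to 3 in each direction for pairwise comparisons, and the 2 of smallest p where none was called. The 5 regions with the strongest windows and the 5 widest were added. Alternatives were RLE size factors, loess offsets, DESeq2 1.42.0, limma-voom 3.58.1, filters, other merging gaps, a replicate block and leaving out each library. The members and lists were chosen with earlier results of these data known. Replicate numbers were not taken to pair libraries.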

Additional observations from a re-analysis of the deposited data

Results flagged for a closer look

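At the window starting at 153940201, 1 of the 10 named losses, Control replicate 1 stood apart from the other uninduced libraries. It had 4.455 CPM, and the other 3 lay between 8.99 and 9.74 CPM. The induced libraries had 0.933 to 3.09 CPM there, so it was above all of them, which the rule for naming required. Of 44 sets of 4 libraries tested, this was the 1 that stood apart, and chance gives about 1 in 20.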

How the results depend on the processing

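Counts of called windows depended on the tool and on single libraries, and the cause was not tested. The largest of the moves given below went the same way over the whole table. For AIRE induction 426 windows were called. limma-voom called 14, windows at or above the median summed count gave 265, and leaving out 1 library gave 186 to 534. For Dox vs Control (72) the counts were 27 with loess offsets along the mean log count, 1 with DESeq2, 0 with limma-voom and 0 to 129 without 1 library. For DoxEtop vs Etop (169) they were 97, 66, 0 and 0 to 316 under the same alternatives, and for DoxEtop vs Control (112) 56, 21, 0 and 0 to 151, with 73 for windows at or above the median summed count. Etop vs Control gave 0 to 5 without 1 library. Among windows selected alike in both AIRE states 286 of 3246 were called (271 lower and 15 higher), and 354 without the windows below 150 Mb. The share called among the 203907 windows of the table selected alike was not taken. Whether the larger share of lower windows in the stretch holds under that selection therefore cannot be told. In these windows the ratio of shares of counts was 0.905, and the sets of libraries did not overlap. Other merging gaps gave 105 and 127 called regions beside 120. With the replicate block the counts were 399, 51, 157 and 101 for AIRE induction, Dox vs Control, DoxEtop vs Etop and DoxEtop vs Control, and 0 for the others. The totals moved by under 1.5 times, but higher windows alone went to 8 (14 without the block) in DoxEtop vs Etop and to 3 (5 without it) in DoxEtop vs Control. The gains named at 154934401 and 156593701 were not called with the block (edgeR adjusted p = 0.052 and 0.064). Same-numbered libraries deviated with correlations of -0.0732 to 0.12, so the numbers were not taken to pair them. The loess offsets along the average log2 CPM, the restriction to windows from 150 Mb on and the alternatives of the share of counts were chosen after seeing the data. In those alternatives of the share, the ratio of shares was 0.88 to 0.91 and the sets of libraries did not overlap. At the lowest counts a fold is poorly fixed, as at 161162451 in Dox vs Control, with a counting interval of 8.64 to 1985.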
